A study of Danio rerio with 3 samples.

Results

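The Eph receptors and ephrins were taken as all rows of the deposited matrices whose gene symbol starts with epha, ephb, efna or efnb. Case was ignored, because *EPHB3* is written in capitals. This gave 29 of 32521 features, which were 8 EphA receptors, 8 EphB receptors, 8 ephrin-A ligands and 5 ephrin-B ligands. Cells were taken from trunk tissue flanking a spinal lesion in zebrafish larvae and profiled by droplet scRNA-seq. There were 3 libraries in 2 groups. Larvae of the gSema4ab group had been injected as embryos with highly active CRISPR RNAs (haCRs) against *sema4ab*, and their cells were run as technical repeats (gSema4abR1 and gSema4abR2). Larvae of the gControl group had been injected with a control gRNA and gave 1 library. All larvae were lesioned at 3 days post-fertilization (dpf), the tissue was collected at 4 dpf, which is 1 day post-lesion (dpl), and 50 larvae were used per sample. The haCR-injected larvae are somatic mutants, that is, their cells carry a mixture of alleles, and the line of the larvae is not named for this experiment in the sources used here.

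Eph receptors are receptor tyrosine kinases in the cell membrane, and ephrins are their ligands on neighboring cells. Ephrin-A ligands are held in the membrane by a lipid anchor and bind mostly EphA receptors, whereas ephrin-B ligands span the membrane and bind mostly EphB receptors, with EphA4 as a known receptor of both classes. Contact between both partners can signal into the cell with the receptor (forward) and into the cell with the ephrin (reverse), and it often ends in repulsion, which guides axons and migrating neural crest cells, keeps tissue boundaries such as those between rhombomeres and somites, and separates arteries from veins. Many zebrafish members come as a and b copies of a mammalian gene.

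The deposited values are counts of UMIs (unique molecular identifiers), so that copies of a captured transcript made by PCR are counted once. After the quality filters and the removal of presumed doublets, 12079 gSema4abR1, 11940 gSema4abR2 and 12247 gControl cells were kept, with 113423532, 114267348 and 122658355 UMIs. Medians per cell were 6477 UMIs with 2006 genes for gSema4abR1, 6737.5 UMIs with 2009 genes for gSema4abR2, and 7199 UMIs with 2357 genes for gControl. The libraries shared between 46 and 67 barcodes in pairs, and no barcode was found in all 3. The target gene *sema4ab* had 3297 UMIs in gSema4abR1 and 3501 in gSema4abR2, against 6283 in gControl, or 29.1 and 30.6 against 51.2 counts per 1000000 UMIs (CPM). The 36266 cells formed 47 clusters, and 27752 cells in 24 classes were named from marker genes. A name such as neuron-like stands for a class made here. The other 8514 cells, in 10 clusters, did not meet the naming rules. The Eph and ephrin genes were left out of the genes used for clustering, so that their levels did not make the classes.

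For every class and library, the UMIs of each gene were added up and scaled to CPM. As the libraries hold 3′ ends, CPM is not scaled by gene length and counts transcripts. A gene was taken as found in a class when it had at least 10 CPM there in every library and at least 30 UMIs over the 3 libraries. Each condition is 1 pool of larvae here, so no test was run and no p-value is given. The 95% intervals cover counting error alone. They are exact Poisson intervals of levels, exact binomial intervals of shares of cells, and exact conditional binomial intervals of log2 ratios. The last rest on UMIs pooled over the libraries of each side, while the log2 ratios compare mean levels over libraries. Such an interval need not be centered on its ratio. The spread between pools of larvae is not in any of these intervals.

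At 1 dpl, Eph receptors and ephrins were found together in most cell classes at the lesion site, and they were scarce in blood and immune cells. Of the 29 genes, 28 were found in at least 1 named class, and *ephb6* in none. The genes differed in where they were highest. Among the named classes, neuron-like cells had the highest mean of 7 genes, endothelium-like cells of 5 and tenocyte-like cells of 4. Muscle progenitor-like and smooth muscle-like cells had that of 3 each, and oligodendrocyte-like cells of 2. Unnamed clusters were not ranked, and some had higher means. The highest class of each library, among those with at least 30 UMIs of the gene in that library, was the same in all 3 libraries for 19 genes. For *epha4a* this was the smooth muscle-like class, not the Kolmer-Agduhr-like class of its highest mean. For 9 of the 28 genes measured in more than 1 class, the intervals of the highest and the next class did not overlap in any library.

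Summed over all 29 genes, neuron-like cells had 2049 and 2015 CPM in gSema4abR1 and gSema4abR2 and 2601 CPM in gControl. Tenocyte-like cells had 2044 and 2156 CPM in the gSema4ab repeats and 2397 CPM in gControl. All other named classes had lower means over the 3 libraries, followed by Kolmer-Agduhr-like cells (1583 CPM), muscle progenitor-like cells (1562 CPM) and oligodendrocyte-like cells (1509 CPM). Kolmer-Agduhr cells are neurons that contact the cerebrospinal fluid. At the other end, macrophage/microglia-like cells had a mean of 85.3 CPM, neutrophil-like cells 39.1 CPM and red blood cell-like cells 34.6 CPM, compared with 696 CPM over all cells. Ionocyte-like cells were rich in ligands and poor in receptors. They had 384 and 368 CPM of ephrins in the gSema4ab repeats and 524 CPM in gControl, next to 64.9 and 57.6 CPM of Eph receptors in the gSema4ab repeats and 56.7 CPM in gControl.

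**Figure D1:**
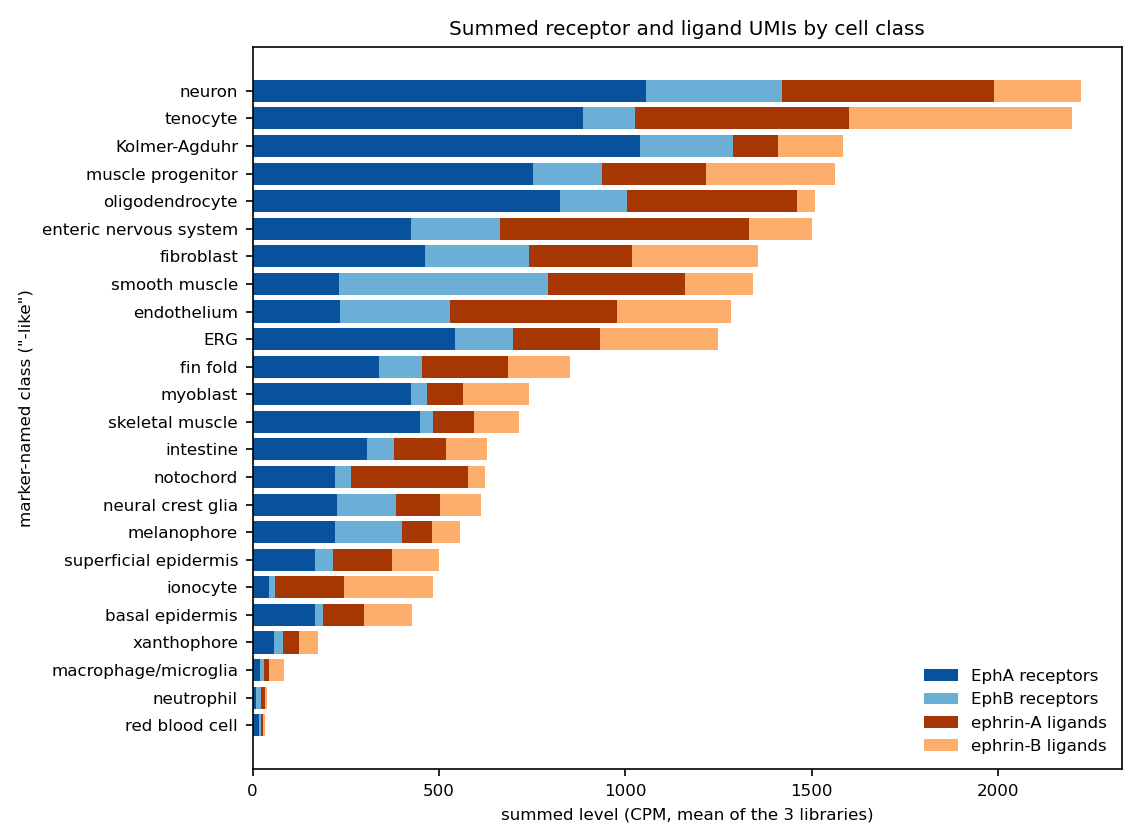
Stacked bars of the summed CPM of the EphA receptors, EphB receptors, ephrin-A ligands and ephrin-B ligands in each named class, as the mean of the 3 libraries. Neuron-like and tenocyte-like cells stand at the high end, ionocyte-like cells hold mostly ephrins, and macrophage/microglia-like, neutrophil-like and red blood cell-like cells stand at the low end.

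The unnamed cells held some of the highest levels. Cluster 4, which carried 11 neuron markers but had none of them among its 10 leading genes and few UMIs per cell for its libraries, was left unnamed and had a mean of 3625 CPM of all 29 genes. Cluster 24, led by *podxl*, *aqp1a.1* and *aanat2*, had a mean of 2378 CPM.

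Among the EphA receptors, *epha4b* was highest in neurons. EphA4 is known as a receptor for repulsive cues on growth cones. *epha4b* had 654 and 563 CPM in gSema4abR1 and gSema4abR2 and 736 CPM in gControl in neuron-like cells, and 64.6% of all its UMIs were in this class. ERG-like cells, the ependymo-radial glia that hold the neural progenitors, were next with 104 and 102 CPM in the gSema4ab repeats and 85.5 CPM in gControl, and the intervals of these classes did not overlap in any library. In cluster 4 it reached 963 and 960 CPM in the gSema4ab repeats and 1248 CPM in gControl. A UMI of *epha4b* was present in 61.3% of neuron-like cells, at a median depth of 4114.5 UMIs per cell, and in 1.27% of red blood cell-like cells, at 4995. With 2000 UMIs drawn from each cell (thinning), these shares were 51.8% and 0.467%.

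The copies *epha4a* and *epha4l* had other places. *epha4a* was highest in the 36 Kolmer-Agduhr-like cells, with 228 and 286 CPM in the gSema4ab repeats and 498 CPM in gControl, followed by smooth muscle-like cells with 103 and 128 CPM in the gSema4ab repeats and 135 CPM in gControl. *epha4l* stayed under 100 CPM in every named class and was highest among them in muscle progenitor-like cells, with a mean of 79.0 CPM. Unnamed cluster 24 had a mean of 84.5 CPM.

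*epha3* was highest in tendon, followed by Kolmer-Agduhr and muscle progenitor cells. In tenocyte-like cells it had 625 and 616 CPM in the gSema4ab repeats and 632 CPM in gControl. In Kolmer-Agduhr-like cells it had 266 and 430 CPM in the gSema4ab repeats and 836 CPM in gControl, and in muscle progenitor-like cells 272 and 362 CPM in the gSema4ab repeats and 569 CPM in gControl. The order of tenocyte-like and Kolmer-Agduhr-like cells was not the same in all libraries. Skeletal muscle-like cells followed with a mean of 245 CPM and ERG-like cells with 224 CPM.

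*epha7* in oligodendrocyte-like cells had the highest mean of any of the 29 genes in a named class (791 CPM). This receptor is known in mice for its part in the closure of the neural tube. It had 708 and 844 CPM in oligodendrocyte-like cells of gSema4abR1 and gSema4abR2 and 822 CPM in those of gControl, and 79.2% of these cells had a UMI of it, compared with 1.47% of red blood cell-like cells. Cells of the enteric nervous system-like class had 312 and 301 CPM in the gSema4ab repeats and 385 CPM in gControl, and neural crest glia-like cells had 178 and 198 CPM in the gSema4ab repeats and 202 CPM in gControl. Each of these steps was larger than the intervals in every library.

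The remaining EphA receptors were *epha2a*, *epha2b* and *epha6*. *epha2b*, a copy of a receptor of mammalian epithelia, was found in skin. It had 128 and 126 CPM in the gSema4ab repeats and 131 CPM in gControl in fin fold-like cells, and 103 and 98.7 CPM in the gSema4ab repeats and 120 CPM in gControl in basal epidermis-like cells. The 46 melanophore-like cells had a higher mean (193 CPM) that varied widely, with 100 and 210 CPM in the gSema4ab repeats and 268 CPM in gControl. *epha2a* was highest in endothelium-like cells (mean 93.8 CPM). *epha6* was highest among the named classes in neuron-like cells, with 83.7 and 117 CPM in the gSema4ab repeats and 172 CPM in gControl. This class held 42.6% of its UMIs, and unnamed cluster 30 had a mean of 167 CPM.

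Among the EphB receptors, *ephb2b* and *ephb4a* had the highest levels. *ephb2b*, a receptor of the family that in mice acts at commissural axons and synapses, was highest in smooth muscle-like cells, with 365 and 247 CPM in gSema4abR1 and gSema4abR2 and 350 CPM in gControl. Kolmer-Agduhr-like cells had a mean of 183 CPM and enteric nervous system-like cells of 123 CPM. Its copy *ephb2a* was found among the named classes in neuron-like cells only, with a mean of 16.4 CPM. It had a mean of 29.6 CPM in unnamed cluster 4 and gave 5.34% of the UMIs of the pair. *ephb4a* belongs to the receptor known from veins. It had 167 and 158 CPM in the gSema4ab repeats and 257 CPM in gControl in endothelium-like cells, next to 124 and 117 CPM in the gSema4ab repeats and 139 CPM in gControl in smooth muscle-like cells, and 93.1 and 88.4 CPM in the gSema4ab repeats and 128 CPM in gControl in fibroblast-like cells. Its copy *ephb4b* was also highest in endothelium-like cells (mean 92.1 CPM).

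*ephb3a* was highest among the named classes in neuron-like cells, with 135 and 141 CPM in the gSema4ab repeats and 176 CPM in gControl. Melanophore-like cells followed with 84.6 and 37.4 CPM in the gSema4ab repeats and 220 CPM in gControl, and oligodendrocyte-like cells with 132 and 67.9 CPM in the gSema4ab repeats and 113 CPM in gControl. The order of these classes changed between libraries. In unnamed cluster 4, *ephb3a* had a mean of 219 CPM and *ephb1* of 153 CPM. *ephb1* had a mean of 92.4 CPM in neuron-like and 59.8 CPM in enteric nervous system-like cells, and *EPHB3* a mean of 31.5 CPM in smooth muscle-like cells. *ephb6*, whose mammalian protein lacks kinase activity, had a mean of 5.44 CPM in neutrophil-like cells, its highest among the named classes with at least 30 of its UMIs, and 23.8 CPM in cluster 35, a cluster led by genes that include the mucins *muc5.1* and *muc5.2*.

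**Figure D2:**
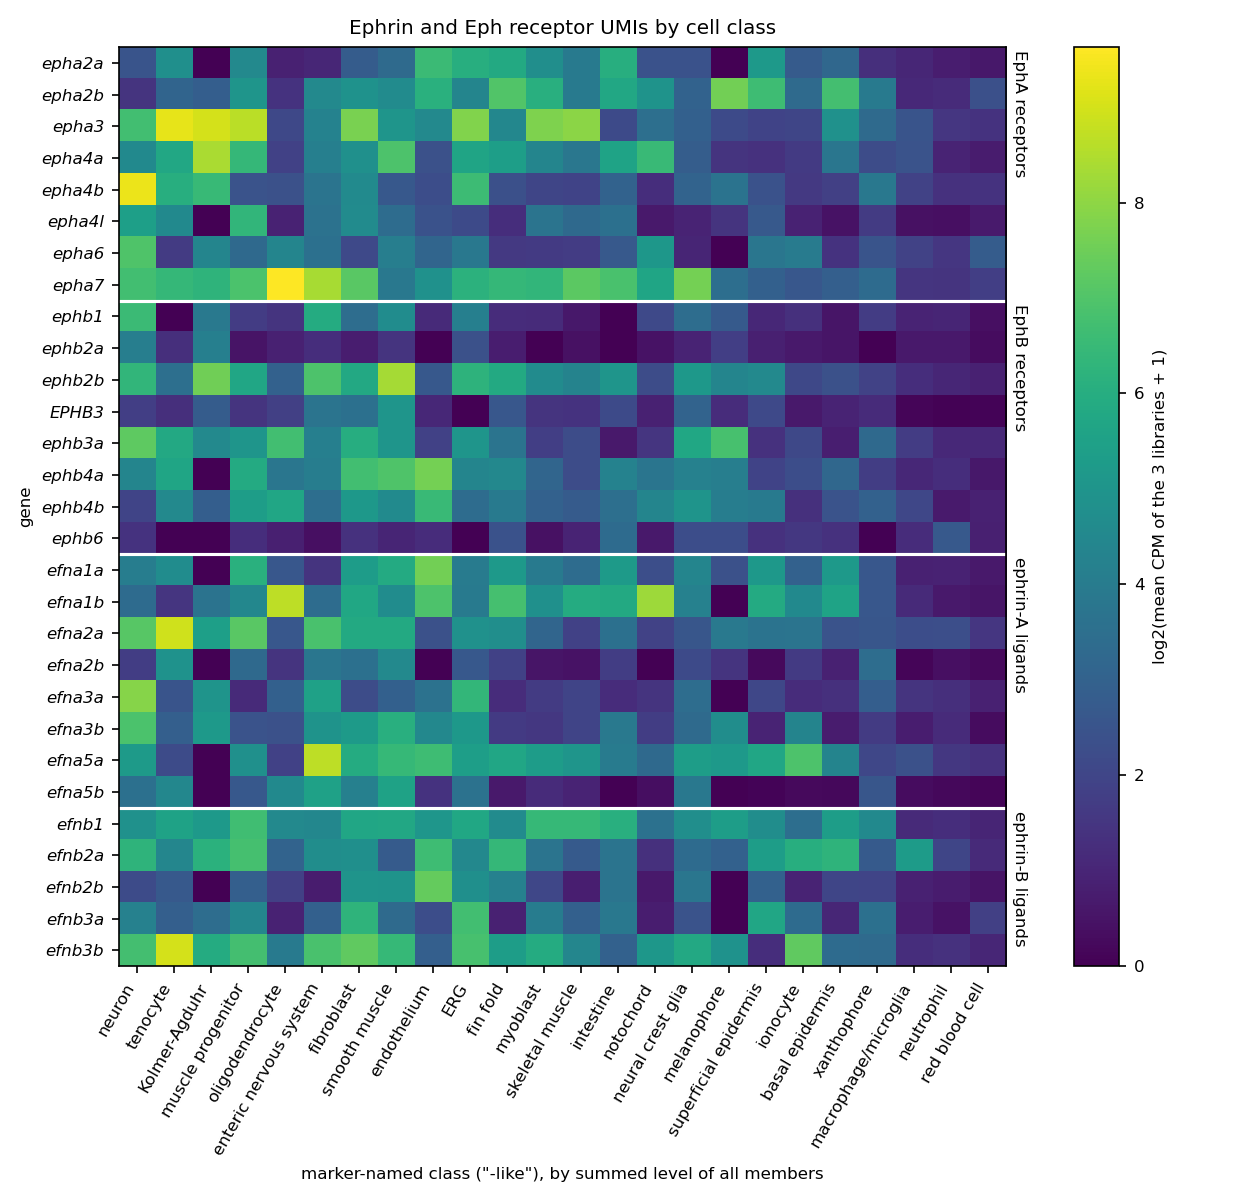
Heat map of log2 of the mean CPM over the 3 libraries plus 1 for each Eph receptor and ephrin (rows) in each named class (columns, ordered by the summed level of all 29 genes). *epha4b* and *efna3a* stand out in neuron-like cells, *epha7* in oligodendrocyte-like cells, and *epha3*, *efna2a* and *efnb3b* in tenocyte-like cells.

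Of the ephrin-A ligands, *efna2a* was highest in tenocyte-like cells. It had 405 and 464 CPM there in gSema4abR1 and gSema4abR2 and 580 CPM in gControl, apart from the next classes in every library. Muscle progenitor-like cells had 119 and 119 CPM in the gSema4ab repeats and 185 CPM in gControl, and neuron-like cells had 123 and 127 CPM in the gSema4ab repeats and 171 CPM in gControl, so that these classes did not differ beyond their intervals. Unnamed cluster 1, led by genes that include *fgl1*, *cxcl12a* and *thbs4b*, had a mean of 299 CPM. The copy *efna2b* was low in the named classes, with a mean of 28.8 CPM in tenocyte-like cells, and had 91.1 CPM in unnamed cluster 33. It gave the smaller share of the UMIs of the pair, of which *efna2a* had 90.7%.

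*efna5a*, a copy of the ligand that maps retinal axons onto the midbrain in chick and mouse, was highest among the named classes in enteric nervous system-like cells. It had 355 and 440 CPM in the gSema4ab repeats and 433 CPM in gControl there, and 71.2% of these cells had a UMI of it, next to 1.21% of red blood cell-like cells. Ionocyte-like cells were next with 118 and 105 CPM in the gSema4ab repeats and 138 CPM in gControl. The highest level of any cluster was in unnamed cluster 24, with 755 and 847 CPM in the gSema4ab repeats and 1546 CPM in gControl. Among the named classes, the copy *efna5b* was highest in smooth muscle-like (mean 45.3 CPM) and enteric nervous system-like cells (mean 44.7 CPM). These did not differ beyond their intervals. In cluster 24 the mean of *efna5b* was 82.6 CPM.

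The copies of ephrin-A3 were both highest among the named classes in neuron-like cells. *efna3a* had 203 and 215 CPM in the gSema4ab repeats and 285 CPM in gControl, and 61.0% of its UMIs were in this class. *efna3b* had 115 and 95.9 CPM in the gSema4ab repeats and 143 CPM in gControl, and it was also found in smooth muscle-like cells (mean 67.2 CPM), where *efna3a* was not. In unnamed cluster 4 the means were 403 CPM for *efna3a* and 245 CPM for *efna3b*.

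The copies of ephrin-A1, a ligand known from mammalian blood vessels, differed. *efna1a* was highest in endothelium-like cells, with 198 and 162 CPM in the gSema4ab repeats and 207 CPM in gControl. *efna1b* had 375 and 397 CPM in the gSema4ab repeats and 452 CPM in gControl in oligodendrocyte-like cells, 383 and 308 CPM in the gSema4ab repeats and 194 CPM in gControl in notochord-like cells, and 148 and 89.2 CPM in the gSema4ab repeats and 130 CPM in gControl in endothelium-like cells. Oligodendrocyte-like cells were higher than notochord-like cells in 2 of the 3 libraries, and apart in 1.

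Of the ephrin-B ligands, *efnb3b* was highest in tenocyte-like cells, with 466 and 532 CPM in gSema4abR1 and gSema4abR2 and 563 CPM in gControl. In mice, ephrin-B3 is the midline barrier of the spinal cord to axons with EphA4. Ionocyte-like cells had 121 and 132 CPM in the gSema4ab repeats and 212 CPM in gControl, and fibroblast-like cells 133 and 140 CPM in the gSema4ab repeats and 190 CPM in gControl. The copy *efnb3a*, which gave 25.5% of the UMIs of the pair, was highest in ERG-like cells, with 77.3 and 125 CPM in the gSema4ab repeats and 106 CPM in gControl, followed by fibroblast-like cells with 56.2 and 66.0 CPM in the gSema4ab repeats and 107 CPM in gControl.

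*efnb2b* was highest in endothelium-like cells, with 191 and 107 CPM in the gSema4ab repeats and 194 CPM in gControl, apart from the next class in every library. *efnb2a*, a known marker of arteries in zebrafish, was more widely spread. It had 107 and 105 CPM in the gSema4ab repeats and 121 CPM in gControl in muscle progenitor-like cells, and 97.2 and 84.6 CPM in the gSema4ab repeats and 116 CPM in gControl in endothelium-like cells, with overlapping intervals. *efnb1* was found in 16 classes, the most of any of the 29 genes, and had its highest mean in muscle progenitor-like cells, with 90.8 and 102 CPM in the gSema4ab repeats and 110 CPM in gControl.

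**Figure D3:**
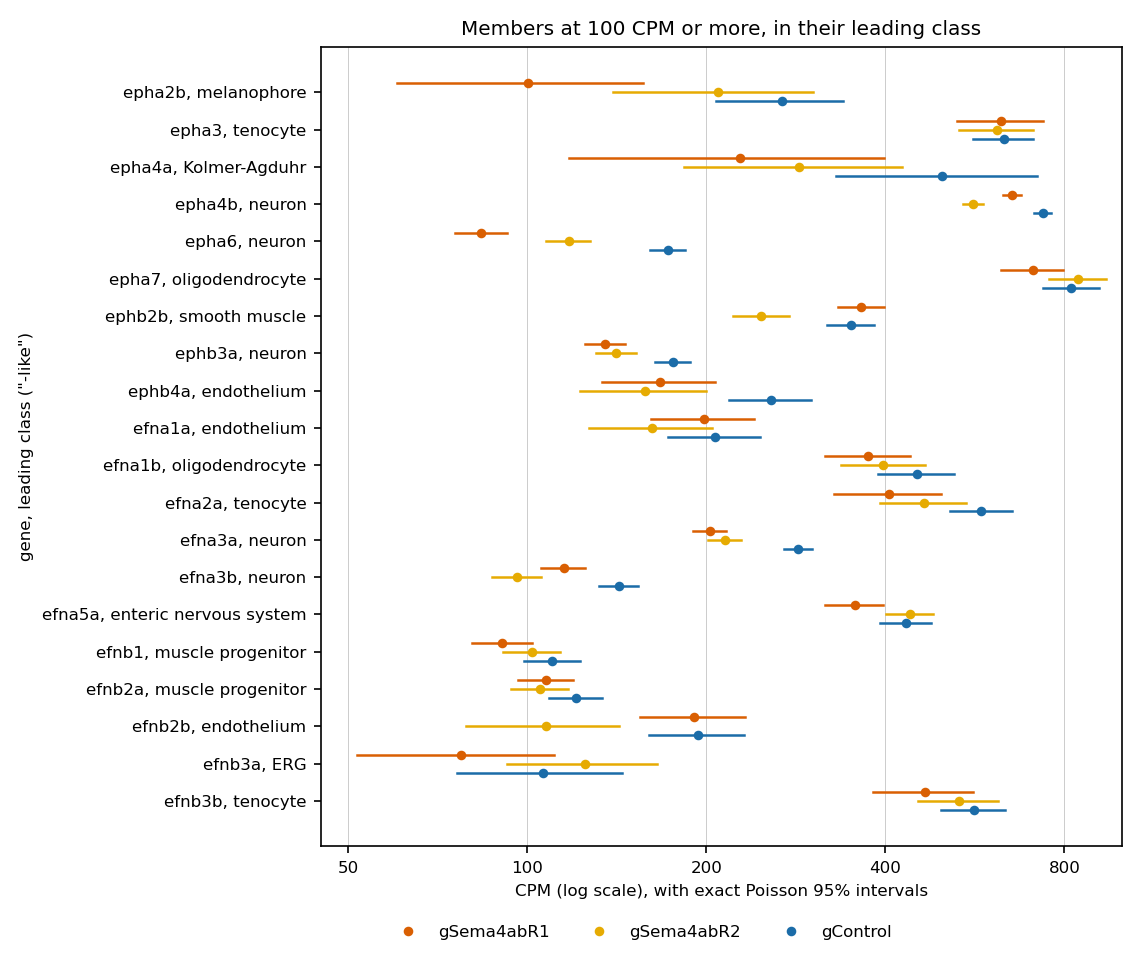
CPM on a log axis of the members with at least 100 CPM in a named class, each in its highest class, with points for gSema4abR1, gSema4abR2 and gControl and bars for exact Poisson intervals. *epha7* in oligodendrocyte-like cells lies at the high end, and *epha4a* and *epha2b* vary most between the libraries, in classes of 36 and 46 cells.

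Blood and immune cells were the classes with the least of both kinds of gene. In macrophage/microglia-like, neutrophil-like and red blood cell-like cells alike, 28 of the 29 genes had a mean under 5 CPM. Red blood cell-like cells served as the background class, and no gene exceeded 6.56 CPM there in any library. The exception in macrophage/microglia-like cells was *efnb2a*, with 36.9 and 40.9 CPM in the gSema4ab repeats and 37.3 CPM in gControl. This class had the highest mean level of *sema4ab*, and 407 of its 1466 cells had an *efnb2a* UMI. Markers of other cell types were counted in the 407 cells and in the 1059 cells without such a UMI. Of the endothelial genes, *fli1a* had a mean of 31.8 CPM in cells with an *efnb2a* UMI and 26.2 CPM in cells without, on 231 UMIs in the cells with one, while *kdrl* had 8 UMIs and *cdh5* 3 UMIs there. The keratin gene *krt4* had a mean of 66.7 CPM in cells with an *efnb2a* UMI and 104 CPM in cells without, and the globin gene *hbbe2* 361 CPM in cells with one and 306 CPM in cells without. The neuronal gene *elavl3* had 1.51 CPM in cells with one and 3.01 CPM in cells without, and the macrophage gene *mpeg1.1* had 392 CPM in both. The part of RNA from other cells in the level of *efnb2a* was not tested. The level of *efnb2a* was 39.0 CPM in cells with a UMI of the microglia marker *apoeb* and 37.8 CPM in cells without.

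A receptor and a ligand were often found in the same cell. Of all kept cells, 64.3% had a UMI of an Eph receptor, 64.8% had a UMI of an ephrin, and 53.4% (52.9% to 54.0%) had both. In gSema4abR1 and gSema4abR2, 51.3% and 51.7% of cells had both, against 57.3% in gControl. As these shares rise with depth, each cell was also thinned to 2000 UMIs, which left out 1692, 1730 and 1445 cells that were shallower. Then 23.7% and 23.8% of gSema4ab cells had both, against 28.5% of gControl cells.

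After thinning, tenocyte-like cells had the highest share of cells with both (70.0%, 159 of 227 cells), followed by neuron-like cells (54.0%) and enteric nervous system-like cells (49.6%). In ionocyte-like cells 52.9% had an ephrin UMI, 8.70% had a receptor UMI and 5.12% had both. In red blood cell-like cells 0.142% had both, and 1.91% before thinning, at a median depth of 4995 UMIs, compared with 72.2% of neuron-like cells at 4114.5 UMIs.

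Within neuron-like cells the genes separated further. Cells were grouped by the UMIs of transmitter genes. *epha6* was highest in the 657 cells with a UMI of the glycine transporter *slc6a5* and none of a glutamate transporter, motor neuron or cholinergic gene. UMIs of GABA genes were allowed in these *slc6a5* cells. *epha6* had 177 and 286 CPM in them in gSema4abR1 and gSema4abR2 and 365 CPM in gControl. In the 482 cells with a UMI of the glutamate transporters *slc17a6a* or *slc17a6b* alone it had 23.9 and 48.0 CPM in the gSema4ab repeats and 72.3 CPM in gControl. Thus *epha6* was higher in *slc6a5* cells in all 3 libraries. *ephb1* went the other way, with 53.4 and 68.8 CPM in the gSema4ab repeats and 67.8 CPM in gControl in *slc6a5* cells and 126 and 170 CPM in the gSema4ab repeats and 88.8 CPM in gControl in glutamate transporter cells. Cells with a UMI of a motor neuron or cholinergic gene and none of *slc6a5* or a GABA gene had the highest means of *epha4b* (818 CPM) and *efna3a* (338 CPM). UMIs of glutamate transporters were allowed in these cells. Cells with a UMI of GABA genes alone had the lowest means of both (379 and 81.3 CPM). The highest place was not kept in gSema4abR2. There *efna3a* had 228 CPM in motor neuron or cholinergic cells, 236 CPM in *slc6a5* cells and 237 CPM in glutamate transporter cells. *epha4b* had 665 CPM in motor neuron or cholinergic cells there and 691 CPM in cells with none of these genes.

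The neuron-like class was made of clusters 3 and 16. The leading genes of cluster 16 included *gap43*, a gene of growing axons, and *atf3*, a gene known to be induced in injured neurons. Cluster 16 had lower levels than cluster 3 of most genes, with means of 373 against 777 CPM for *epha4b*, 51.3 against 317 CPM for *efna3a*, 21.2 against 170 CPM for *epha6* and 13.5 against 143 CPM for *epha7*. *ephb1* was alike (93.6 against 91.8 CPM). *epha4l* was higher in cluster 16, with 62.4 and 79.9 CPM in the gSema4ab repeats and 87.1 CPM in gControl, against 29.6 and 27.8 CPM in the gSema4ab repeats and 24.4 CPM in gControl in cluster 3.

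Endothelium-like cells were compared by markers of arteries and veins that hold no Eph or ephrin gene, since ephrin-B2 and EphB4 are the textbook pair of these vessels. There were 63 cells with more UMIs of the arterial list and 120 with more of the venous list. *cldn5b* of the arterial list and *flt4* of the venous list were also among the markers that named the endothelium-like class. The part of these genes in the grouping was not tested. In arterial-marker cells *efnb2a* had 192 and 192 CPM in gSema4abR1 and gSema4abR2 and 239 CPM in gControl. In venous-marker cells it had 32.7 and 30.9 CPM in the gSema4ab repeats and 52.0 CPM in gControl. The log2 ratio of arterial-marker over venous-marker cells was 2.39 (1.86 to 2.95), and it was 2.50, 2.58 and 2.18 in gSema4abR1, gSema4abR2 and gControl. *efnb2b* was also higher in arterial-marker cells, with a log2 ratio of 1.53 (1.19 to 1.93).

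The receptor *ephb4a* did not show the opposite pattern. It had 245 and 260 CPM in the gSema4ab repeats and 349 CPM in gControl in arterial-marker cells, and 114 and 106 CPM in the gSema4ab repeats and 208 CPM in gControl in venous-marker cells, a log2 ratio of 0.99 (0.61 to 1.27). In cells thinned to 2000 UMIs this ratio was 0.42 (−0.38 to 1.11), so that a difference was not detectable at this depth, whereas that of *efnb2a* was 2.03. *ephb4b* had a log2 ratio of 0.46 (−0.06 to 0.92). Of the genes lower in arterial-marker cells, *efna5a* had a log2 ratio of −1.18 (−2.11 to −0.85), with 19.2 and 89.0 CPM in the gSema4ab repeats and 47.8 CPM in gControl in arterial-marker cells and 91.5 and 68.7 CPM in the gSema4ab repeats and 208 CPM in gControl in venous-marker cells. It was thus higher in venous-marker cells in gSema4abR1 and gControl but not in gSema4abR2. The interval of *efna5a* rests on pooled UMIs, 27 in arterial-marker and 132 in venous-marker cells, and does not cover this difference between libraries.

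**Figure D4:**
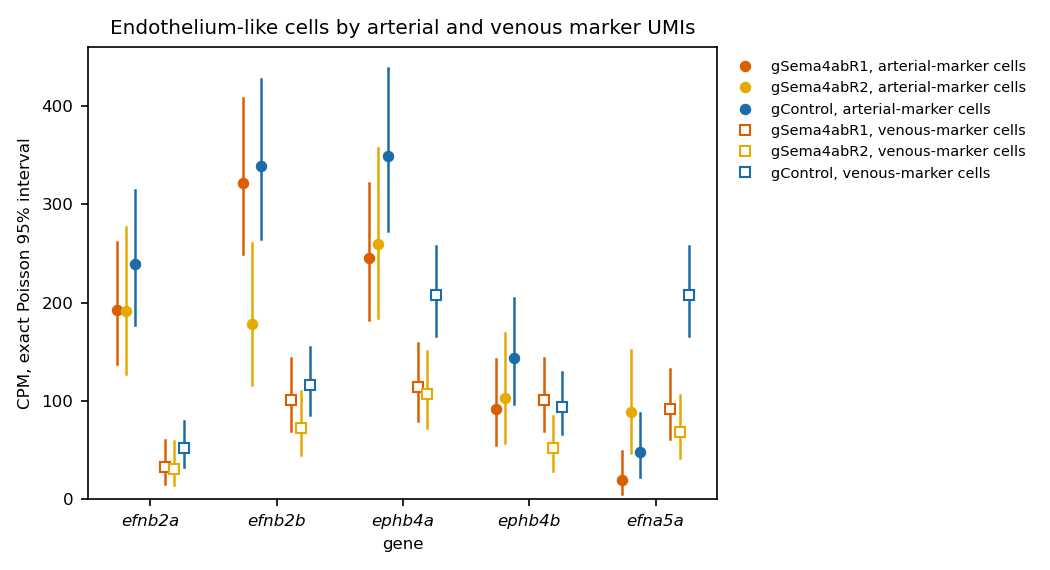
CPM with exact Poisson 95% intervals of *efnb2a*, *efnb2b*, *ephb4a*, *ephb4b* and *efna5a* in arterial-marker (filled circles) and venous-marker (open squares) endothelium-like cells of gSema4abR1, gSema4abR2 and gControl. *efnb2a*, *efnb2b* and *ephb4a* are higher in arterial-marker cells in all 3 libraries.

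The conditions were compared to see how levels differed when *sema4ab* was disrupted. Over all cells, both kinds of gene were lower in gSema4ab than in gControl. The receptors summed to 337 and 335 CPM in gSema4abR1 and gSema4abR2 and 421 CPM in gControl, a log2 ratio of the mean of the gSema4ab repeats over gControl of −0.32 (−0.34 to −0.31). The ephrins summed to 301 and 310 CPM in the gSema4ab repeats and 384 CPM in gControl, a log2 ratio of −0.33 (−0.35 to −0.31). Among the 29 genes, *EPHB3* had the lowest log2 ratio, −0.96 (−1.14 to −0.79), with 2.12 and 2.56 CPM in the gSema4ab repeats and 4.57 CPM in gControl. *efna2b* had the highest, 0.36 (0.20 to 0.53), with 4.96 and 4.51 CPM in the gSema4ab repeats and 3.68 CPM in gControl.

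These log2 ratios depended on the scaling. gSema4ab cells held fewer genes per cell, and with TMM factors, which assume that most genes do not change, the median gene moved up by 0.21 on the log2 scale. The log2 ratio was then −0.11 for the receptors and −0.12 for the ephrins. With the mix of cell groups of gControl in every library, an alternative chosen after seeing the data, the log2 ratios were −0.33 and −0.34.

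Within the classes, a gene was counted as past the fold when it was at least 1.5-fold higher or at least 1.5-fold lower than gControl in both gSema4ab repeats, in pairs of gene and class with at least 30 UMIs over the 3 libraries. Of 354 such pairs, 30 were higher and 59 lower, in 22 of the 24 classes. By the same rule, 6.47% of the 225279 pairs of all features were higher and 13.0% lower. Among the 221 pairs found at 10 CPM or more in every library, 9 were higher and 37 lower, with a median log2 ratio of −0.30, and 148 were lower in both repeats. Over all features at this level, 4.46% were higher and 10.2% lower, with a median of −0.11. Of these 143579 pairs of all features, 71222 were lower in both repeats and 45118 higher in both. Among the 221 pairs, 35 were higher in both. With TMM factors 32 of the 354 pairs were higher and 38 lower, and 67 of the 89 pairs stayed past the fold. The shares of all features past the fold were not counted with TMM factors. The TMM counts can therefore not be set against the shares above. Besides the pairs named below, those that did not stay at 10 CPM or more were *epha3* in endothelium-like, *efna5a* in neural crest glia-like, *epha7* in notochord-like, and *ephb2b* in skeletal muscle-like and intestine-like cells. Without the removal of doublets, where 474 pairs were measured, 45 of the 89 were past the fold. Between the repeats, the log2 levels of a pair differed by a median of 0.29, and those of the gSema4ab mean and gControl by 0.46.

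**Figure D5:**
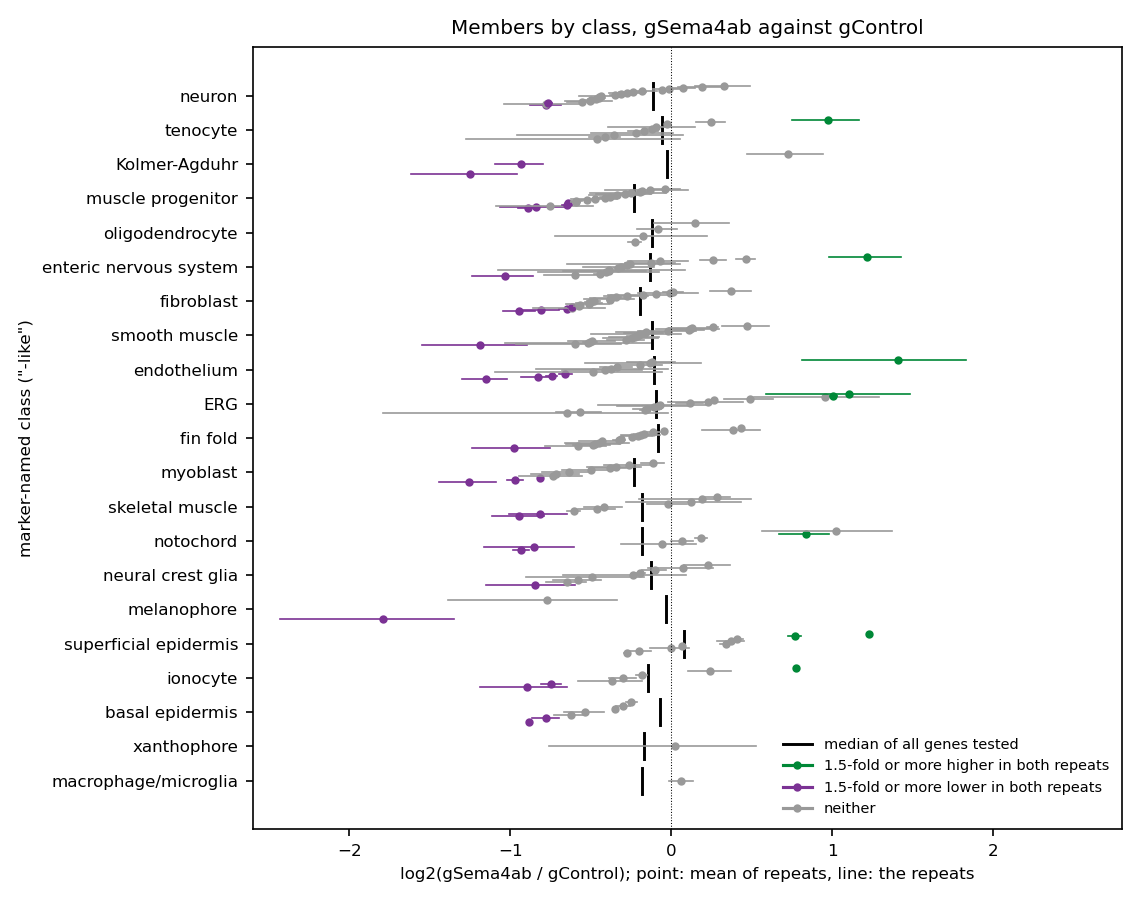
Log2 ratio of gSema4ab over gControl for the pairs of gene and class with at least 10 CPM in every library, by class and without intestine-like cells. Points are the mean of the repeats and lines join the ratios of gSema4abR1 and gSema4abR2, colored green or purple where both repeats are at least 1.5-fold higher or lower, and black ticks are the median of all genes tested in the class. Most points lie left of 0, and *epha2a* and *efnb3a* in superficial epidermis-like cells and *efna1b* in notochord-like cells lie right of it.

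The muscle classes differed in how many genes were past the fold. In myoblast-like cells 8 of 17 measured genes were lower and none was higher, with 12.4% of all features of the class lower, and in muscle progenitor-like cells 6 of 24 were lower, with 13.2% of all features. *epha3* had 169 and 158 CPM in myoblast-like cells of gSema4abR1 and gSema4abR2 and 321 CPM in those of gControl, a log2 ratio of −0.97 (−1.11 to −0.84). In muscle progenitor-like cells its log2 ratio was −0.84 (−0.94 to −0.76), and with TMM factors −0.62, with which it was no longer past the fold in both repeats. *epha4l* in muscle progenitor-like cells had 64.2 and 58.8 CPM in the gSema4ab repeats and 114 CPM in gControl, a log2 ratio of −0.89 (−1.10 to −0.68).

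The other lower pairs of muscle progenitor-like cells were *efna1a* (−0.65), *efna2a* (−0.64) and, not found at 10 CPM in every library, *efna5b* and *epha6*. None of these was past the fold with TMM factors, so that of the lower pairs of this class only *epha4l* stayed. In myoblast-like cells the others were *efna5a* (−0.82) and *ephb2b* (−1.25), and at lower levels *efnb2a*, *efnb3a*, *epha4l*, *ephb4a* and *ephb4b*. Skeletal muscle-like cells had 3 of 15 genes lower and 2 higher, with 13.5% of all features of the class lower and 4.91% higher. The lower ones were *efna5a* (−0.95), *ephb2b* (−0.82) and, at a low level, *epha4l*, and the higher ones, at low levels, *epha2a* and *ephb4b*. *efna5a* was lower in cluster 29 of this class, with 23.8 CPM in both gSema4ab repeats and 55.7 CPM in gControl, but not in cluster 41, with 16.6 and 34.3 CPM in the gSema4ab repeats and 13.3 CPM in gControl. In tenocyte-like cells 1 of 10 genes was higher and none was lower, with 5.84% of all features of the class higher and 8.19% lower. The higher gene was *epha4a*, with 73.3 and 54.8 CPM in the gSema4ab repeats and 32.5 CPM in gControl. Its log2 ratio was 0.97 (0.03 to 1.93) on 49 UMIs.

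Endothelium-like cells had 5 of 13 genes lower, with 11.6% of all features of the class. *efna5a* had 62.2 and 75.5 CPM in the gSema4ab repeats and 155 CPM in gControl, a log2 ratio of −1.15 (−1.66 to −0.71). *epha2b* had 58.3 and 50.3 CPM in the gSema4ab repeats and 97.6 CPM in gControl (−0.83), and *ephb4a* a log2 ratio of −0.66 (−0.99 to −0.33), which was not past the fold with TMM factors. *epha3* (−0.74, with an interval that holds 0) and *efna3b* were lower at small counts. *epha7* went the other way, with 23.3 and 48.0 CPM in the gSema4ab repeats and 13.0 CPM in gControl, on 41 UMIs. In arterial-marker cells it had 57.6 and 82.1 CPM in the gSema4ab repeats and 14.3 CPM in gControl, on 27 UMIs. In venous-marker cells it had 0 and 30.9 CPM in the gSema4ab repeats and 12.4 CPM in gControl, on 14 UMIs.

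Over all features and named classes, 13.0% of pairs were lower by the fold rule and 6.47% higher. *efna5a* was lower in 7 of the 17 classes in which it was measured, more than any other ephrin, and higher in none. Besides those named, these were neuron-like cells with 29.9 and 30.8 CPM in the gSema4ab repeats and 51.7 CPM in gControl (−0.76), basal epidermis-like cells with 14.6 and 16.4 CPM in the gSema4ab repeats and 26.7 CPM in gControl (−0.78), neural crest glia-like cells (−0.85), and macrophage/microglia-like cells at a level under 10 CPM. In its highest class, enteric nervous system-like cells, it was not past the fold.

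*epha3* was lower in 6 of 18 classes and higher in none, next to 13.0% of the pairs of all features lower and 6.47% higher. In Kolmer-Agduhr-like cells its log2 ratio was −1.25 (−1.79 to −0.58), and in the same 36 cells that of *epha4a* was −0.94 (−1.67 to −0.15). In fin fold-like cells it had 13.2 and 18.4 CPM in the gSema4ab repeats and 31.2 CPM in gControl (−0.98). The last of the 6 classes was the red blood cell-like class, at a level under 5 CPM in every library.

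In neuron-like cells 2 of 27 genes were lower and 1 was higher, with 10.5% of all features of the class lower and 5.01% higher. *epha7* had 78.0 and 89.2 CPM in the gSema4ab repeats and 144 CPM in gControl, a log2 ratio of −0.78 (−0.93 to −0.63), or −0.68 with TMM factors, with which it was not past the fold. Within the class, it was lower in cluster 3, with 112 and 124 CPM in the gSema4ab repeats and 193 CPM in gControl, and higher in cluster 16, where it had 12.8 and 20.6 CPM in the gSema4ab repeats and 7.06 CPM in gControl. The make-up of this class moved with the condition. Cluster 3 held 65.5% and 66.1% of the UMIs of the class in the gSema4ab repeats and 73.5% in gControl. *efna5a* was lower in cluster 3, with 39.9 and 40.4 CPM in the gSema4ab repeats and 65.2 CPM in gControl. In cluster 16 it was not past the fold (−0.28). *epha4b*, the most abundant of the genes in neurons, was not past the fold and had a log2 ratio of −0.27 (−0.33 to −0.21). Within clusters 3 and 16 the log2 ratio of *epha4b* was −0.24 and −0.08.

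In fibroblast-like cells 5 of 28 genes were lower and none was higher, with 14.1% of all features of the class lower. *efnb3a* had 56.2 and 66.0 CPM in gSema4abR1 and gSema4abR2 and 107 CPM in gControl, a log2 ratio of −0.81 (−0.91 to −0.70). *efna2a* (−0.62), *efna3b* (−0.65) and *efna5b* (−0.94) were lower as well, and of these 4 pairs only *efna5b* stayed past the fold with TMM factors. The make-up of the class moved, with cluster 2 at 28.3% and 27.5% of its UMIs in the gSema4ab repeats and 35.4% in gControl. In cluster 2, *efnb3a* (−0.41) and *efna2a* (−0.29) had their highest levels and were not past the fold. Both were lower by the fold rule in clusters 9 and 11. *efna3b* was so in cluster 23 alone, and *efna5b* in clusters 2, 9 and 23. *EPHB3*, a receptor that in mice sorts cells along the intestinal crypt, had 8.15 and 7.34 CPM in the gSema4ab repeats and 16.9 CPM in gControl, and it was lower in fibroblast-like clusters 2, 9 and 11. It was also lower in smooth muscle-like cells, with 17.0 and 26.9 CPM in the gSema4ab repeats and 50.4 CPM in gControl, a log2 ratio of −1.19 (−1.73 to −0.68).

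The 4 clusters of fibroblast-like cells differed in these genes. In cluster 9, 10 of 27 genes were lower, next to 14.1% of all features of the cluster, with *epha7* at 190 and 153 CPM in the gSema4ab repeats and 344 CPM in gControl, and *ephb4a* at 60.4 and 68.6 CPM in the gSema4ab repeats and 120 CPM in gControl. In cluster 11, 8 of 24 were lower (11.9% of all features), and in cluster 23, 5 of 20 (13.8%). In cluster 2, 4 of 26 were lower, a share near the 12.1% of all features. *efnb1* was higher in cluster 2, with 41.9 and 38.9 CPM in the gSema4ab repeats and 25.7 CPM in gControl, and in cluster 9, with 11.1 and 10.7 CPM in the gSema4ab repeats and 6.89 CPM in gControl.

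Superficial epidermis-like cells were the class with the most genes higher in gSema4ab, 9 of 26, with 17.8% of all features of the class higher. *epha2a* had 43.4 and 42.8 CPM in the gSema4ab repeats and 18.4 CPM in gControl, a log2 ratio of 1.23 (1.03 to 1.43). *ephb2b* had 30.2 and 27.2 CPM in the gSema4ab repeats and 9.50 CPM in gControl, a log2 ratio of 1.59 (1.33 to 1.87). *efnb3a* had 57.6 and 60.8 CPM in the gSema4ab repeats and 34.8 CPM in gControl (0.77). The others were *ephb4b* and *efna2a*, both under 20 CPM, and *efna3a*, *epha4a*, *epha4b* and *ephb6*, with at most 7.02 CPM.

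The make-up of this class moved with the condition. Cluster 6, led by *irg1l*, held 43.5% and 43.6% of the UMIs of the class in the gSema4ab repeats and 18.7% in gControl. In cluster 6, 3 of 20 genes were higher, a share near the 14.3% of all features of the cluster. In cluster 7, 5 of 22 were higher (13.1% of all features). Within cluster 6, *epha2a* had 69.6 and 62.8 CPM in the gSema4ab repeats and 33.3 CPM in gControl, and in cluster 7 it had 23.4 and 27.4 CPM in the gSema4ab repeats and 15.0 CPM in gControl. *ephb2b* had 28.2 and 24.3 CPM in the gSema4ab repeats and 10.99 CPM in gControl in cluster 6, and 31.8 and 29.4 CPM in the gSema4ab repeats and 9.16 CPM in gControl in cluster 7. Both receptors were thus past the fold within each cluster. *efnb3a* was past the fold in neither, with 90.6 and 92.6 CPM in the gSema4ab repeats and 79.0 CPM in gControl in cluster 6 and 32.2 and 36.1 CPM in the gSema4ab repeats and 24.6 CPM in gControl in cluster 7.

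Notochord-like cells had both directions. *efna1b*, with the levels given above, had a log2 ratio of 0.83 (0.59 to 1.08), while *epha4a* had 67.5 and 72.1 CPM in the gSema4ab repeats and 133 CPM in gControl (−0.93), and *epha7* 31.6 and 46.7 CPM in the gSema4ab repeats and 70.9 CPM in gControl (−0.85). *efnb1* was higher at a low level. In ionocyte-like cells *efnb3b* had a log2 ratio of −0.74 (−0.94 to −0.54), and *efna3b* (−0.89) and, at a low level, *efnb1* were also lower, whereas *epha6* (0.78) and, at a low level, *epha2a* were higher. None of the lower pairs of ionocyte-like cells was past the fold with TMM factors. The make-up of this class moved with the condition too, with cluster 31 at 47.5% and 51.7% of its UMIs in the gSema4ab repeats and 66.5% in gControl. *efnb3b* was past the fold in neither cluster, with 214 and 218 CPM in the gSema4ab repeats and 294 CPM in gControl in cluster 31, and 36.1 and 39.0 CPM in the gSema4ab repeats and 46.8 CPM in gControl in cluster 38.

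In basal epidermis-like cells *efna1a* had 27.3 and 27.8 CPM in the gSema4ab repeats and 50.9 CPM in gControl, a log2 ratio of −0.88 (−1.07 to −0.69). In melanophore-like cells the log2 ratio of *ephb3a* was −1.79 (−2.56 to −1.01), on 8 to 21 cells per library. Of 15 genes measured in ERG-like cells, which hold the progenitors of new neurons, none was lower by the fold rule. Over all features of the class, 10.3% were lower and 7.44% higher. In ERG-like cells *efna2a* (1.11) and *efnb2b* (1.01) were higher, on 33 and 31 UMIs with intervals that hold 0.

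The enteric nervous system-like class had higher *efnb2a*, with 36.6 and 26.8 CPM in the gSema4ab repeats and 13.3 CPM in gControl, and lower *efnb1* (−1.03), next to *epha2b* (higher) and *epha4b* (lower) at low levels. Other pairs past the fold at low levels were *ephb3a* and *ephb4b* in macrophage/microglia-like cells, *epha6* in neutrophil-like cells, *efnb2a* and *ephb1* in neural crest glia-like cells, *ephb4b* in neuron-like cells and *epha2a* in smooth muscle-like cells, all higher. *ephb3a* in fin fold-like cells and *efnb3a* in smooth muscle-like cells were lower. In red blood cell-like cells, where 19.5% of all features were lower, 5 of 16 genes were lower, namely *efna3a*, *efnb3b*, *epha2b*, *epha3* and *epha4b*. They had at most 6.56 CPM in any library, and the level of red blood cell-like cells moved with the condition in the same direction as that of most other classes.

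Intestine-like cells had 7 of 10 genes lower, but 34.3% of all features of this class were lower, and gControl had 10 of these cells, next to 35 and 70 in the gSema4ab repeats. The lower genes were *efna1a*, *efna1b*, *epha2a*, *epha2b*, *ephb2b*, *epha4a* and *epha7*. *efna3b* and *epha4l* had UMIs in gSema4ab and none in the gControl cells, and no fold is given for them. *ephb2a* and *efna2b* were past the fold in no class. The median log2 ratio of the measured genes was below that of all genes tested in 20 of the 24 classes.

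The other genes of the pathway were counted in lists that were chosen with earlier results of these data known. Of the PDZ proteins and other genes of reverse signaling, 6 of 162 pairs of gene and class were higher and 28 lower, with a median log2 ratio of −0.37. In the list of Src and Abl family kinases 2 of 84 pairs were higher and 12 lower, with a median of −0.38. In that of adaptors 6 of 249 were higher and 32 lower, with a median of −0.18. In that of proteases that shed ephrins or Eph receptors and of phosphatases 6 of 144 were higher and 20 lower, with a median of −0.24. The median over all features was −0.14, with 6.47% of pairs higher and 13.0% lower. In the order given, the lists had 17.3%, 14.3%, 12.9% and 13.9% of their pairs lower. Their shares of higher pairs were 3.70%, 2.38%, 2.41% and 4.17%. The lower shares of the kinase, adaptor and shedding lists were thus near that of all features.

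Of the pairs of these lists past the fold in classes where a member had its highest level, those with more than 300 UMIs are given, a limit set after the values were seen. In muscle progenitor-like cells *grip1*, a PDZ protein that binds ephrin-B ligands in mammals, had 37.2 and 35.2 CPM in the gSema4ab repeats and 61.9 CPM in gControl, a log2 ratio of −0.77. In enteric nervous system-like cells *stat3* had 152 and 163 CPM in the gSema4ab repeats and 251 CPM in gControl, a log2 ratio of −0.67. In neutrophil-like cells *adam17a*, which codes for a sheddase, had 25.8 and 26.6 CPM in the gSema4ab repeats and 44.9 CPM in gControl, a log2 ratio of −0.77. In smooth muscle-like cells *anks1b* was higher, with 180 and 168 CPM in the gSema4ab repeats and 110 CPM in gControl, a log2 ratio of 0.66.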

How the data were processed

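Trunk tissue around the lesion was dissociated and profiled by droplet scRNA-seq in 3 libraries. The authors deposited counts, that is, UMIs per gene and barcode, with Cell Ranger 7.1.0 and GRCz11 named in the submitters' processing notes. Barcodes with fewer than 200 genes, a UMI count outside 500 to 50000, 20% or more UMIs from mitochondrial genes, or over 20 UMIs for each gene detected were left out. The highest Scrublet scores (scanpy 1.11.5) were removed as presumed doublets at a rate of 0.8% per 1000 barcodes. Cells were integrated and clustered in Seurat 5.3.0 (R 4.3.3), without the Eph and ephrin genes, the pathway lists and *sema4ab* among the variable genes. Clusters were named from at least 3 markers present in at least 10% of cells and 3-fold over other cells, settings chosen after a first clustering was seen, and a cluster of few UMIs per cell for its libraries needed a marker among its 10 leading genes. The genes and lists were chosen with earlier results of these data known. Some pathway genes are not reported here. The text names all 29 members, gives values per library for members with at least 100 CPM and 30 UMIs in a class, in their leading classes, names each pair past the fold, sets gene copies side by side and counts the pathway genes. Ratios used a prior of 0.5 UMIs, intervals scipy 1.17.1 and TMM factors edgeR 4.0.16. As the gSema4ab libraries are technical repeats of 1 pool, no model was fitted. The scripts were tested on simulated data. Alternatives were other resolutions, scalings, limits and doublet settings.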

Additional observations from a re-analysis of the deposited data

Results flagged for a closer look

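Some genes were past the fold in opposite directions in different classes, in both gSema4ab repeats. The difference between the classes was not tested. The log2 ratio of gSema4ab over gControl for *epha2a* was 1.23 in superficial epidermis-like and −2.64 in intestine-like cells. For *efna1b* it was 0.83 in notochord-like and −1.96 in intestine-like cells, and the intestine-like class held 10 gControl cells. For *efnb3a* it was 0.77 in superficial epidermis-like cells, past the fold in neither cluster of the class. It was −0.81 in fibroblast-like cells, not past the fold in cluster 2. For *efna2a* it was 1.11 in ERG-like cells, on 33 UMIs, and −0.64 in muscle progenitor-like cells. In fibroblast-like cells it was −0.62, not past the fold in cluster 2. For *epha4a* it was 0.97 in tenocyte-like cells, on 49 UMIs, and −0.94 in Kolmer-Agduhr-like and −0.93 in notochord-like cells. For *epha7* it was 1.41 in endothelium-like cells, on 41 UMIs, and −0.78 in neuron-like and −0.85 in notochord-like cells.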

How the results depend on the processing

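No paired analysis was possible because the groups share fewer than 2 replicate numbers. With TMM factors the log2 ratio of gSema4ab over gControl was −0.11 for the summed receptors and −0.12 for the summed ephrins, and without globin and mitochondrial genes in the totals it was −0.29 for both. Without the removal of doublets the receptors had −0.30. Without 1 gSema4ab repeat, the ephrins had −0.35 to −0.31. The 89 pairs past the fold became 138 to 146 when 1 repeat alone had to pass, 41 with at least 100 UMIs and 31 at 2-fold. The arterial over venous log2 ratio of *ephb4a* was 0.42 after thinning. The share of cells with both a receptor and an ephrin UMI was 25.4% after thinning and 55.0% without the removal of doublets. The highest class stayed for 23 to 28 of the 29 genes over the alternatives, with 23 when doublets were kept. In the other alternatives run, the results kept their direction and moved by less than the limits set. Classes of few cells limit the precision, and with 1 pool of larvae per condition the spread between pools is not measured.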

Other observations

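Unnamed cluster 33 had a mean of 239 CPM of *epha7*, and its levels differed widely between the libraries, with 447 and 191 CPM in gSema4abR1 and gSema4abR2 and 80.1 CPM in gControl. In the same cluster *efnb3b* had 556 and 520 CPM in the gSema4ab repeats and 279 CPM in gControl. The cluster held 73 and 96 gSema4ab cells and 47 gControl cells. In several pairs of gene copies the level was carried by 1 copy. *efna5a* had 89.0% of the UMIs of its pair and was the higher copy in 13 classes, with *efna5b* higher in 0. *efnb3b* was the higher copy in 13 classes and *efnb3a* in 1. The copies of ephrin-A3 were more even, as *efna3a* had 49.1% of the UMIs, and each copy was the higher in 3 classes.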
